A study of Mus musculus with 6 samples.

Results

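The 33 genes described here are Trp53, which encodes the transcription factor p53, together with its direct controllers, the kinases and adaptors that report DNA damage, the end-joining machinery, and textbook target genes of p53. They were chosen by gene symbol and make up 33 of the 49997 genes counted in each library. None of them was called different between photoreceptors that received a guide against Nr2e3 and photoreceptors that received a control guide, and most were detected at low to moderate levels in both groups. The 5 targets of cell death Bbc3, Pmaip1, Fas, Eda2r and Phlda3 were at or near 0 in most libraries.

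RNA was counted in 3 libraries labelled Nr2e3 knockout, which received the Nr2e3 guide, and 3 libraries of a non-targeting control guide. All 6 mice carried the Rosa26-Cas9 allele, so that SpCas9, the nuclease that cuts DNA at the guide's site, was present in every cell of both groups. Both guides came in an adeno-associated virus with the 7m8 coat, delivered under the retina, in which a human GRK1 promoter, active in photoreceptors, drove the red protein mCherry. Each library holds about 100000 mCherry-positive cells sorted 6 months after injection from 2 retinas of 1 mouse. The labels give the age at injection as postnatal day 21 in the series text and as 4 weeks in the treatment protocol. Nr2e3 guide replicate 1 came from a male and replicates 2 and 3 from females, while the 3 control guide libraries all came from males. The groups therefore differ in sex as well as in guide. A guide of the control kind has no intended genomic site, so a comparison of the groups sets cells in which Cas9 had a target against cells in which it had none, at a time long after delivery. The sorted cells were selected on mCherry, and the share of alleles cut or edited is not read by these counts.

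p53 is kept at low protein levels by the ubiquitin ligase Mdm2 and its relative Mdm4. When DNA breaks, the kinases Atm and Atr, acting with Chek1 and Chek2, modify p53 so that it escapes Mdm2, binds DNA and activates genes for cell cycle arrest, repair and death, among them Mdm2 itself. Most of this activation of p53 happens on the protein, so Trp53 mRNA need not follow it. To repair double strand breaks, postmitotic neurons rely mainly on end joining, through Xrcc5, Xrcc6, Prkdc and Lig4, since homologous recombination is tied to DNA replication.

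p53 binds DNA as a tetramer at pairs of a short palindromic element, the p53 half-site, whose consensus is the same on both strands. RefSeq promoter windows of build GRCm38.p6, running from 250 bases before to 50 bases after a gene's start, were at hand for 28 of the 33 genes. A perfect match to the half-site consensus stood in a window of 11 of these 28 genes (39.3%), against 2582 of 27025 genes with a window in the mouse genome (9.55%). The genes had been picked as p53 targets or partners, and a match describes the letters of the window, not binding in these cells. A window of Cdkn1a, the best known target of p53, was the only one among these genes with a pair of half-sites no more than 13 bases apart, an arrangement found in 20 of the 27025 genes (0.074%). It is printed 5′ to 3′ with both half-sites in capitals, 12 bases apart. Their first bases lie 73 and 51 bases before the transcript start of that window. Only perfect matches are marked, and the 10 bases directly after the second half-site depart from the consensus at their first base alone. The window of another annotated start of Cdkn1a (chr17:29093519-29093818) held no half-site.
Cdkn1a (chr17:29090729-29091028, + strand): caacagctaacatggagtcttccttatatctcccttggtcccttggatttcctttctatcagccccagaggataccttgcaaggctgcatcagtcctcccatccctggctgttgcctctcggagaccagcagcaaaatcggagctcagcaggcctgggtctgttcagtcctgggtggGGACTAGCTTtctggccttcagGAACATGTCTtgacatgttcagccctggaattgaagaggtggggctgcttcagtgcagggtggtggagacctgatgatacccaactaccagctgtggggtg
The other matches are shown with 10 bases of flank on each side, the half-site in capitals, because they let the promoters of the controllers, arrest genes and death genes be read against each other.
Trp53 (chr11:69580274-69580303, + strand): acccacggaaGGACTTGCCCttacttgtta
Mdm2 (chr10:117710925-117710954, - strand): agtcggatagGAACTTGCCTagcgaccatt
Ccng1 (chr11:40755452-40755481, - strand): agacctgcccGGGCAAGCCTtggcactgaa
Sesn1 (chr10:41887256-41887285, + strand): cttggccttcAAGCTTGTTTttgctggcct
Gadd45a (chr6:67037428-67037457, - strand): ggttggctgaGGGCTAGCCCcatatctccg
Polk (chr13:96519399-96519428, - strand): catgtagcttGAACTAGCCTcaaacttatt
Gtse1 (chr15:85859945-85859974, + strand): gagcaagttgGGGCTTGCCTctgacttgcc
Bax (chr7:45467080-45467109, - strand): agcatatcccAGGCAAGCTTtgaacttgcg
Aen (chr7:78895927-78895956, + strand): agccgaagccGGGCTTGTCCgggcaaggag
Ei24 (chr9:36797325-36797354, - strand): cgtgcggcccGGGCATGCCCagtgtgggcg
The matches of Cdkn1a, Sesn1, Polk and Gtse1 stood in the window of 1 of their several annotated starts. Trp53 itself, Mdm2, the arrest and stress genes Ccng1, Sesn1, Gadd45a, Polk and Gtse1 and the death genes Bax, Aen and Ei24 carried a match. The windows of the other 17 genes held none, and these include the p53 targets Bbc3, Fas, Phlda3, Eda2r, Plk2, Plk3 and Psrc1 as well as Mdm4, Atm, Atr, Chek1, Chek2, Trp53bp1, Brca1, Xrcc5, Xrcc6 and Lig4. Holding no match says only that these letters were not in these windows.

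Libraries held 24705561 to 33098812 gene counts in the Nr2e3 guide group and 32626751 to 34286248 in the control guide group, so that 3 counts in a library corresponded to 0.0875 to 0.121 CPM. CPM here is a gene's count scaled to the library's total over all named genes. Nr2e3, the nuclear receptor gene that the guide targets, stood at 2024, 1773 and 2303 CPM in Nr2e3 guide libraries 1 to 3, against 1695, 1608 and 1645 CPM in control guide libraries. Its log2 fold change was 0.37 (SE 0.13) and was not called (edgeR adjusted p = 0.716). Indels left by Cas9 are not seen by counts over the whole gene, which makes this level no check of the labels. The sorted cells were rich in rod RNA, with 31935 to 37623 CPM of the rod arrestin gene Sag in Nr2e3 guide libraries and 33566 to 35626 CPM in control guide libraries. Of 8 pigment epithelium markers, Rpe65 was at most 0.0367 CPM in Nr2e3 guide libraries and 0.0885 CPM in control guide libraries. The summed level of all 8 was 3.12, 1.7 and 4.68 CPM in Nr2e3 guide libraries, against 21.1, 22.5 and 5.72 CPM in control guide libraries, and 1 of them, Rdh5, was lower in every Nr2e3 guide library without being called (edgeR adjusted p = 0.409). Rdh5 made up most of the sum in control guide replicate 3, at 5.54 CPM. Dct was at 0 there, against 7.82 and 6.64 CPM in control guide replicates 1 and 2.

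Control guide replicate 3 stood apart. Its 13 microglia markers all lay above both other control guide libraries, and their summed level was 35.9, 169 and 126 CPM in Nr2e3 guide libraries 1 to 3, against 31.9, 36.7 and 342 CPM in control guide libraries 1 to 3. None of these markers, which include C1qb and Cx3cr1, was at 0 in any library. In control guide replicate 3 all 8 cone markers lay below both other control guide libraries, as did 8 of 9 amacrine markers. The cone markers summed to 13718, 11280 and 10695 CPM in Nr2e3 guide libraries, against 6491, 7254 and 1421 CPM in control guide libraries. Only 2 of the 8, Gnat2 and Pde6h, had a log2 fold change above 0. The median log2 fold change of the 8 was -0.66, and 0 of them were called. A list of genes that damaged photoreceptors and their glia are known to induce, such as Edn2 and Stat3, summed to 40.8, 102 and 82.9 CPM in Nr2e3 guide libraries, against 33.4, 41.9 and 365 CPM in control guide libraries. Among all 17138 genes tested, control guide replicate 3 was the highest of the 6 libraries for 32.7%. Of the 26 genes of the p53 and damage set that were tested, it was the highest for 12 (46.2%), namely Trp53, Mdm2, Mdm4, Atm, Atr, Trp53bp1, Prkdc, Xrcc5, Xrcc6, Lig4, Cdkn1a and Plk2. It lay above both other control guide libraries for 17 of the 26, against 50.7% of all genes, and below both for 6 of the 26, against 34.1%. These ranks are of plain CPM. The TMM factors by which edgeR also scales libraries were 1.093 for control guide replicate 3 and 0.9308 to 1.027 for the others. Ranks can differ after that scaling. The part of this library in the group differences was not tested beyond leaving it out, nor was that of pigment epithelium RNA.

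**Figure D1:**
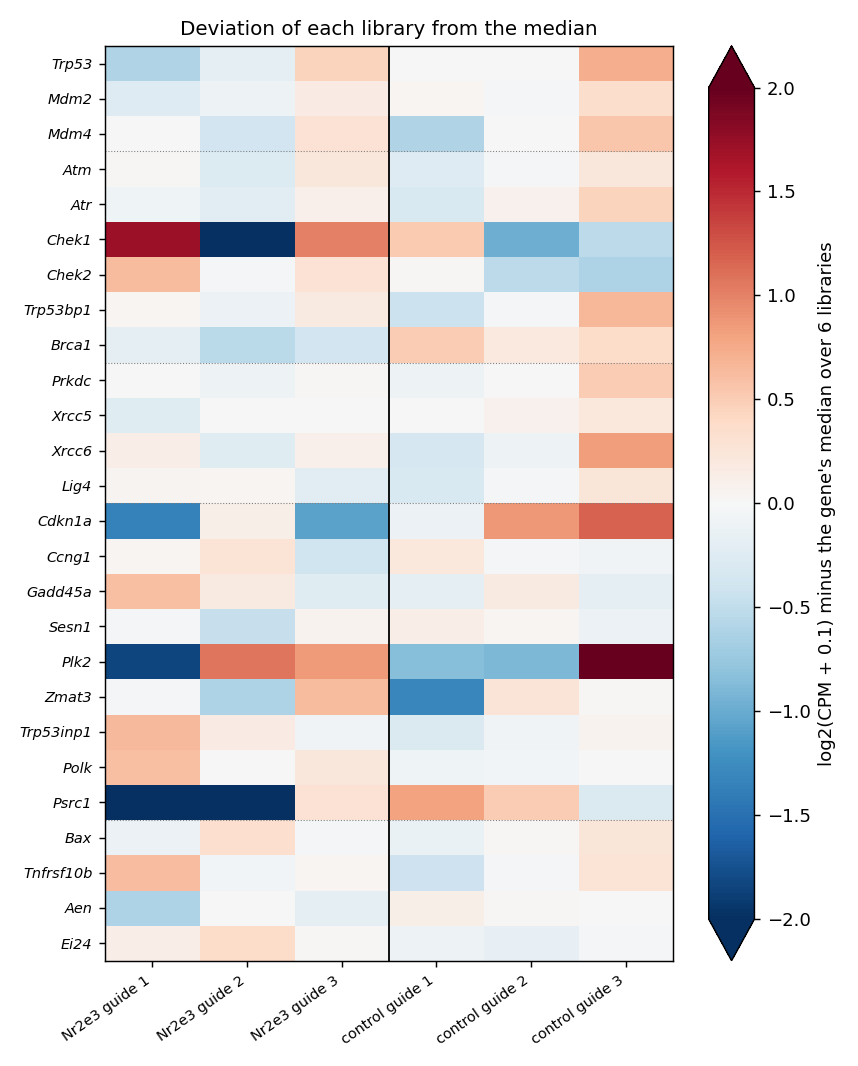
Deviation of each library from the gene's median over the 6 libraries, for the genes tested (x axis, libraries with Nr2e3 guide left of control guide, and colour, difference on the log2 scale of CPM). In plain CPM, without TMM factors, control guide replicate 3 is the highest of the 6 libraries for 12 of the 26 genes. Plk2 shows the widest spread among well detected genes.

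Of the 33 genes, 26 passed a filter that asks for about 10 counts in as many libraries as a group holds and were tested, and 7 did not (Phlda3, Eda2r, Bbc3, Pmaip1, Fas, Plk3 and Gtse1). edgeR's quasi-likelihood test called 0 of the 26 at an adjusted p under 0.05, in a comparison where it called 54 of 17138 genes higher in Nr2e3 guide libraries (0.315%) and 5 lower (0.0292%). DESeq2 called 0 of the 26 where it called 1.17% of all genes higher and 0.408% lower, and limma-voom called 0 of the 26 where it called 0.934% higher and 0.111% lower. At an unadjusted p under 0.05 in edgeR, 1 of the 26 passed, Brca1, on the lower side, where 5.69% of all genes passed, 3.08% on the higher side and 2.61% on the lower. The 26 log2 fold changes, Nr2e3 guide over control guide, were above 0 for 13 genes and below 0 for the other 13, against 48.5% above 0 over all genes. They ran between -1.60 for Psrc1 and 1.23 for Chek1, 2 genes of very low count. Their median was 0.00 and that of all genes -0.01.

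The absence of a call has a measurable width. For 16 of the 26 genes the 95% interval of the difference lay inside a 2-fold change in either direction, and for 5 of these, Mdm2, Sesn1, Atm, Xrcc5 and Lig4, inside a 1.5-fold change. For the other 10 tested genes a 2-fold difference was within the interval, and for the 7 genes under the filter no interval was computed. The median standard error was 0.248 on the log2 scale for the set and 0.358 for all genes tested. In bulk RNA a difference in the number of cells that express a gene cannot be told apart from a difference in RNA per cell, so a response in a small share of the sorted cells is averaged with the rest.

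**Figure D2:**
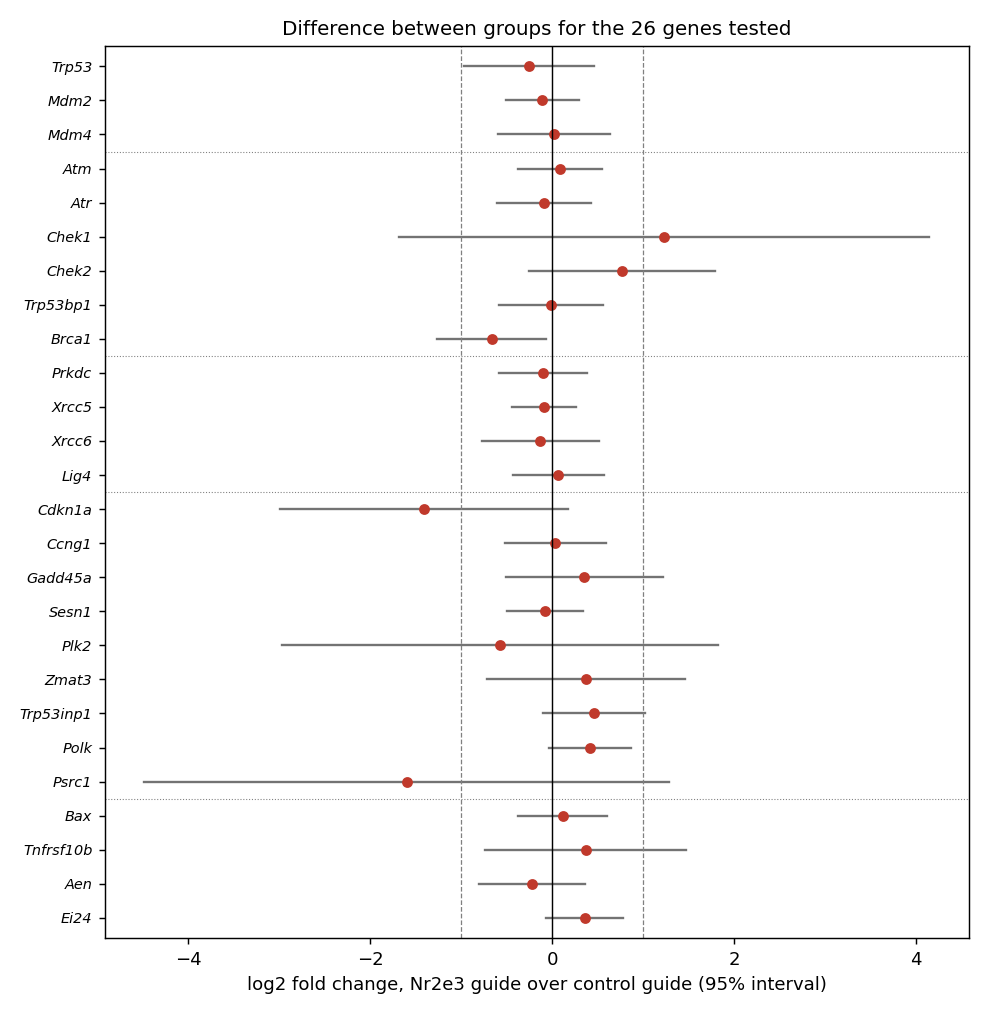
Log2 fold change, Nr2e3 guide over control guide (x axis), with its 95% interval for each of the 26 genes tested, ordered by role from p53 and its controllers at the top to the death targets at the bottom; dashed lines mark a 2-fold change. Brca1 alone has an interval that does not reach 0 (-1.26 to -0.07), and Chek1, Cdkn1a, Plk2 and Psrc1 have the widest.

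p53 and its direct controllers were all transcribed in both groups, with none of the 3 called. Trp53 was at 9.35, 12.5 and 19.6 CPM in Nr2e3 guide libraries 1 to 3 and at 14.2, 14.4 and 23.8 CPM in control guide libraries 1 to 3. The libraries of the groups interleaved, with replicate 3 the highest on each side, and the log2 fold change was -0.26 (SE 0.31, edgeR adjusted p = 0.995). Mdm2, which is both the main inhibitor of p53 and among its most direct targets, was at 22.5, 24.9 and 30.0 CPM in Nr2e3 guide libraries, against 27.6, 26.1 and 34.2 CPM in control guide libraries. The groups overlapped, and the interval of the log2 difference ran from -0.51 to 0.30 around a value of -0.11, so that an Mdm2 level more than 1.5-fold higher or lower lay outside it. Mdm4, which binds p53 and masks its activating region, was at 53.3, 40.6 and 65.3 CPM in Nr2e3 guide libraries, against 35, 53.2 and 78.5 CPM in control guide libraries. Control guide replicates 1 and 3 were the lowest and highest of the 6 libraries for Mdm4, and its log2 fold change was 0.02 with all libraries and 0.29 without control guide replicate 3.

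Among the kinases and adaptors that report damage, neither Atm nor Atr was called. Atm, the kinase that answers double strand breaks, was at 15.9, 13 and 18.3 CPM in Nr2e3 guide libraries and at 13.1, 15.5 and 18.3 CPM in control guide libraries, with a log2 fold change of 0.09 and an interval of -0.37 to 0.55. Atr, the kinase that answers single-stranded DNA at stalled replication forks, averaged 12.2 ± 1.44 CPM in Nr2e3 guide libraries and 13.8 ± 3.56 CPM in control guide libraries (SD, n = 3 each). Neither gene separated the groups. Trp53bp1, the chromatin adaptor 53BP1 that steers breaks to end joining, was at 31.0, 28.0 and 34.3 CPM in Nr2e3 guide libraries, against 22.5, 29.6 and 48.3 CPM in control guide libraries. The control guide libraries spanned the Nr2e3 guide libraries on both sides, and the log2 fold change was -0.02 (SE 0.25). Tubgcp4, a gene on the opposite strand, overlaps 15% of the exons of Trp53bp1, and the strand setting of the counting is not given in the sources used here.

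The checkpoint kinases downstream of Atm and Atr had few counts, 33 to 66 per library for Chek2 and 0 to 51 for Chek1. Chek2, which Atm activates, was at 2.42, 1.5 and 1.90 CPM in Nr2e3 guide libraries, against 1.56, 1.03 and 0.962 CPM in control guide libraries. Only the lowest Nr2e3 guide library and the highest control guide library crossed, and the log2 fold change of 0.77 (SE 0.44) had an edgeR adjusted p of 0.992. Chek1, which Atr activates and which dividing cells use most, had 51, 0 and 37 counts in Nr2e3 guide libraries and 25, 7 and 11 counts in control guide libraries. Its highest and lowest libraries both belonged to the Nr2e3 guide group, and the log2 fold change of 1.23 carried a standard error of 1.25.

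Brca1 was the gene of the set with the smallest p. It lies at chr11:101488761-101551955 on the minus strand (GRCm38). It encodes a ubiquitin ligase of homologous recombination and of the damage checkpoint, and it was at 5.50, 4.33 and 4.83 CPM in Nr2e3 guide libraries, against 9.01, 7.26 and 8.14 CPM in control guide libraries. Every Nr2e3 guide library lay below every control guide library, as was the case for 7.55% of all genes tested (5.92% after scaling by TMM factors, where Brca1 also did not overlap), and the 26 tested genes held 1 such gene. The means were 4.89 ± 0.586 CPM with the Nr2e3 guide and 8.13 ± 0.878 CPM with the control guide (SD, n = 3 each). The log2 fold change was -0.67 (SE 0.26, 95% interval -1.26 to -0.07), with an unadjusted edgeR p of 0.0334 and an adjusted p of 0.783, so Brca1 was not called. It was below 0 in all 15 alternative settings, at values between -0.77 and -0.49, with an unadjusted p under 0.05 in 7 of them and an adjusted p of at least 0.375. Its level was low per length, at 0.573 CPM per kilobase of exon with the Nr2e3 guide and 0.953 with the control guide.

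Genes of cycling cells give a context for Chek1 and Brca1, which such cells express most. The summed level of 15 such markers was 14.7, 12.4 and 16.1 CPM in Nr2e3 guide libraries and 5.21, 10.1 and 19.9 CPM in control guide libraries. Mki67 was at 0 in Nr2e3 guide replicates 1 and 2 and in control guide replicates 1 and 2, and did not exceed 0.332 CPM in the rest. Plk1, a kinase of mitosis and the marker of that list with the smallest p, was at 3.70, 5.26 and 7.40 CPM in Nr2e3 guide libraries, against 1.84, 2.48 and 0.846 CPM in control guide libraries. Its unadjusted edgeR p was 0.00891 and its adjusted p 0.476. Of the 15 markers 7 were tested, and 4 of these, Plk1 among them, had a log2 fold change above 0. Ccnb1, Tpx2 and Nusap1 were below 0, at -1.01, -0.68 and -0.36. The part of cycling cells in the values of Chek1 and Brca1 was not tested.

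All 4 genes of end joining overlapped between the groups. In plain CPM all 4 were highest in control guide replicate 3, a rank that can differ after scaling by TMM factors. Xrcc5, which encodes the Ku80 subunit of the ring that caps broken ends, was at 30.4, 36.3 and 35.6 CPM in Nr2e3 guide libraries, against 35.6, 38.0 and 41.4 CPM in control guide libraries. The upper Nr2e3 guide libraries reached the lowest control guide library, and the log2 fold change of -0.09 had an interval of -0.44 to 0.26. Xrcc6, which encodes the partner subunit Ku70, was at 35.5, 27.3 and 34.6 CPM in Nr2e3 guide libraries and at 25.6, 30.1 and 57.9 CPM in control guide libraries. A single library, control guide replicate 3, set the upper end, and the log2 fold change was -0.13 with all libraries and 0.25 without it. Desi1 overlaps 7.69% of the exons of Xrcc6 on the opposite strand. Prkdc, the catalytic subunit of the kinase that Ku recruits, averaged 12.6 ± 0.550 CPM in Nr2e3 guide libraries and 14.4 ± 3.44 CPM in control guide libraries (SD, n = 3 each), with a log2 fold change of -0.10 (SE 0.21). Lig4, the ligase that seals the ends, averaged 12.7 ± 1.23 CPM in Nr2e3 guide libraries and 12.9 ± 2.43 CPM in control guide libraries, with a log2 fold change of 0.07 (SE 0.22). Per kilobase of exon Xrcc5 was the highest of all 33 genes, at 13.3 CPM with the Nr2e3 guide and 15 CPM with the control guide, followed at that scale by Sesn1, at 11.7 CPM with the Nr2e3 guide and 13 CPM with the control guide.

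**Figure D3:**
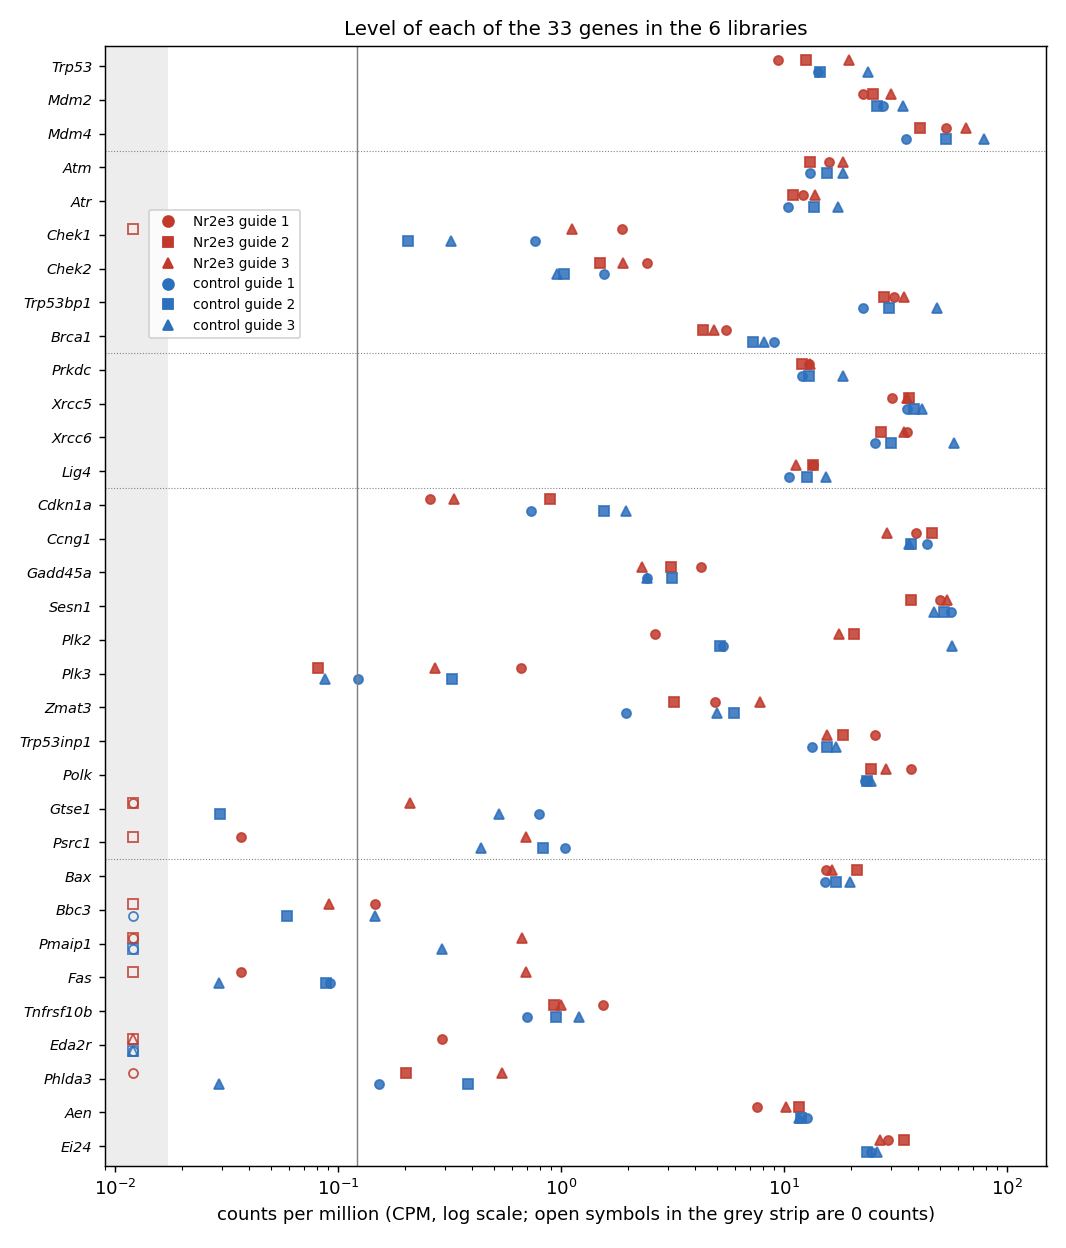
CPM of each gene in each library (log x axis, values at 0 placed at the left edge), Nr2e3 guide in red and control guide in blue, grouped by role; the grey vertical line marks 3 counts in the shallowest library (0.121 CPM). Most controllers, kinases and end-joining genes lie between about 10 and 60 CPM with the groups mixed, while Cdkn1a, Chek1 and most death targets lie near the line.

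Cdkn1a (GRCm38 chr17:29090979-29100722, plus strand) encodes p21, the inhibitor of cyclin-dependent kinases through which p53 stops the cell cycle, and it is the target most often read as a sign of p53 activity. It had 7, 22 and 11 counts in Nr2e3 guide libraries, which is 0.257, 0.890 and 0.332 CPM, against 24, 53 and 67 counts or 0.736, 1.56 and 1.95 CPM in control guide libraries. All but 1 pair of libraries were ordered with the control guide higher, the exception being Nr2e3 guide replicate 2 against control guide replicate 1. The log2 fold change was -1.41 (SE 0.68, interval -2.99 to 0.17) with an edgeR adjusted p of 0.926, and it lay between -2.35 and -0.91 over the 14 alternatives in which the gene was tested, never called. Both groups were low, at 0.139 and 0.399 CPM per kilobase with the Nr2e3 guide and the control guide, whereas Ccng1, another target, reached 10.8 and 11.1. AC167363.2 overlaps 7.68% of the exons of Cdkn1a on the opposite strand.

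Ccng1, a cyclin-like regulator that recruits a phosphatase to Mdm2, was at 39.1, 46.1 and 28.8 CPM in Nr2e3 guide libraries, against 43.9, 37.1 and 36.3 CPM in control guide libraries. The Nr2e3 guide group held both the highest and the lowest library, and the log2 fold change was 0.04 (SE 0.24). Sesn1, a stress-induced inhibitor of mTOR signalling, was at 49.7, 36.9 and 53.8 CPM in Nr2e3 guide libraries, against 55.8, 52.3 and 46.9 CPM in control guide libraries. The groups overlapped, with a log2 fold change of -0.08 and an interval of -0.50 to 0.34. Gadd45a, a growth arrest gene induced by damage, was at 4.22, 3.12 and 2.30 CPM in Nr2e3 guide libraries, against 2.42, 3.13 and 2.42 CPM in control guide libraries (log2 fold change 0.35, SE 0.37). E230016M11Rik overlaps 19.1% of its exons on the opposite strand. Zmat3, a zinc finger gene that p53 activates, was at 4.91, 3.20 and 7.76 CPM in Nr2e3 guide libraries and at 1.96, 5.93 and 5.02 CPM in control guide libraries. Spread within each group exceeded 2-fold for Zmat3, and the groups overlapped.

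A further pair of targets had most Nr2e3 guide libraries above the control guide libraries without passing the test. Trp53inp1, a cofactor that helps kinases to act on p53, was at 25.6, 18.3 and 15.6 CPM in Nr2e3 guide libraries, against 13.3, 15.5 and 17.1 CPM in control guide libraries. Nr2e3 guide replicates 1 and 2 lay above every control guide library, replicate 3 did not, and the log2 fold change was 0.46 (SE 0.24, edgeR adjusted p = 0.957). Polk, a DNA polymerase that copies past damaged bases, was at 37.0, 24.4 and 28.7 CPM in Nr2e3 guide libraries, against 23.1, 23.5 and 24.4 CPM in control guide libraries. The groups met at 24.4 CPM, and after scaling by TMM factors they no longer overlapped, as for 6.18% of all genes on that scale. The log2 fold change of Polk was 0.42 (SE 0.19, edgeR adjusted p = 0.915). With sex as a term the log2 fold changes were 0.83 for Trp53inp1 and 0.73 for Polk, and neither was called. That fit, like one on males alone, rests on Nr2e3 guide replicate 1, the highest library for both genes, as the only male of its group.

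Plk2 was the well detected gene with the widest spread. The gene lies at chr13:110395044-110400844 on the plus strand (GRCm38) and encodes a polo-like kinase that p53 induces and that neurons also use at active synapses. It was at 2.64, 20.5 and 17.6 CPM in Nr2e3 guide libraries 1 to 3, against 5.33, 5.16 and 56.7 CPM in control guide libraries 1 to 3. Control guide replicate 3 was 10.8 times the mean of the other control guide libraries, and within the Nr2e3 guide group replicates 2 and 3 lay far above replicate 1. The log2 fold change was -0.58 (SE 1.03, interval -2.98 to 1.82, edgeR adjusted p = 0.995), and it turned to 1.40 without control guide replicate 3 (adjusted p = 0.703), to 1.23 without both replicate 3 libraries and to -2.94 in males alone. It was not called in any of these settings.

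The order of the libraries for Plk2 was set beside 2 other p53 targets and 3 genes of other lists, chosen after their values were seen. Gadd45b, a stress relative of Gadd45a, was at 0.367, 4.65 and 3.87 CPM in Nr2e3 guide libraries, against 1.07, 1.65 and 23.7 CPM in control guide libraries. Bik, a death gene of the Bcl2 family, was at 0.660, 6.72 and 3.23 CPM in Nr2e3 guide libraries, against 0.981, 1.3 and 21.1 CPM in control guide libraries. C1qb, a complement gene of microglia, was at 8.21, 37.9 and 32.9 CPM in Nr2e3 guide libraries, against 8.09, 10 and 101 CPM in control guide libraries. In all of these control guide replicate 3 was the highest, and Nr2e3 guide replicates 2 and 3 came next. The immediate early gene Egr1, which activity and tissue dissociation induce, was at 0.953, 6.80 and 8.85 CPM in Nr2e3 guide libraries, against 2.79, 6.72 and 62.9 CPM in control guide libraries. The part of microglial RNA, injury or dissociation in the level of Plk2 was not tested.

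**Figure D4:**
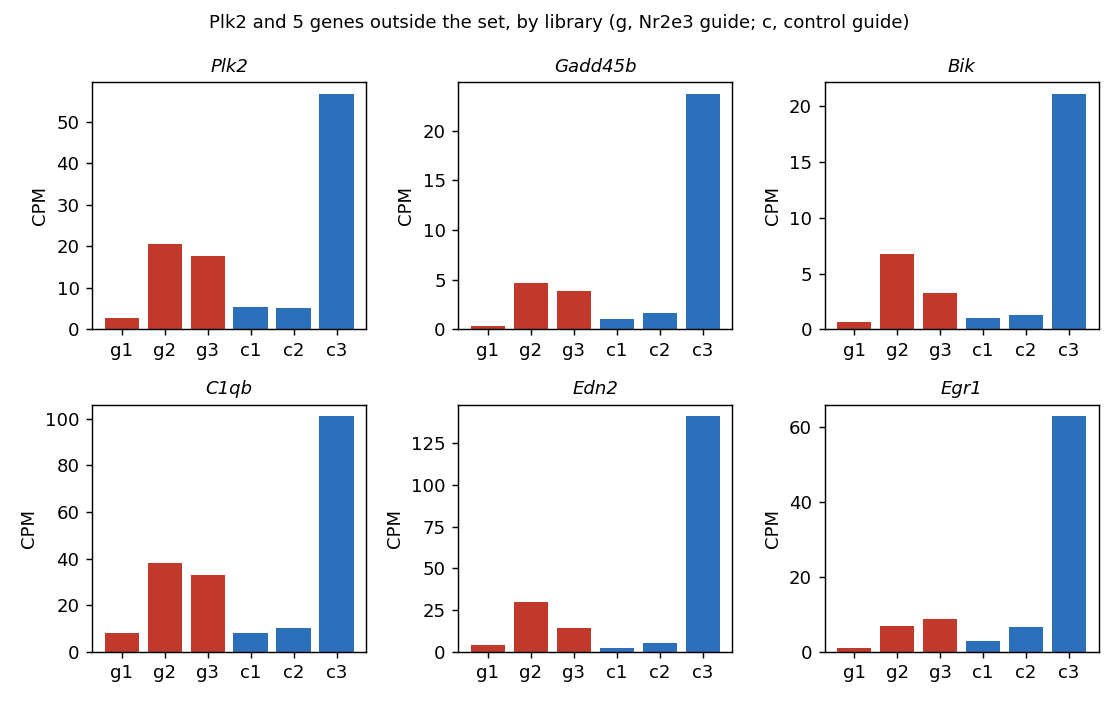
CPM (y axis, linear, a scale per panel) by library for Plk2, for the p53 targets Gadd45b and Bik, and for C1qb, Edn2 and Egr1, with Nr2e3 guide libraries in red to the left and control guide libraries in blue. In each panel control guide replicate 3 is the highest bar, at 56.7 CPM for Plk2, and Nr2e3 guide replicate 1 is at most 8.21 CPM.

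The remaining arrest and stress targets had few counts. Psrc1, a microtubule-associated protein of dividing cells, had 1, 0 and 23 counts in Nr2e3 guide libraries and 34, 28 and 15 counts in control guide libraries. Only Nr2e3 guide replicate 3 reached the range of the control guide libraries, and the log2 fold change was -1.60 (SE 1.24, edgeR adjusted p = 0.995) with it and -5.00 without it (adjusted p = 0.330), a fitted value that rests on a single read in the remaining Nr2e3 guide libraries. Gtse1, a mitotic protein that sends p53 out of the nucleus, was not tested, with 0, 0 and 7 counts in Nr2e3 guide libraries and 26, 1 and 18 counts in control guide libraries. Plk3, a polo-like kinase of the stress response, was not tested, with 18, 2 and 9 counts in Nr2e3 guide libraries and 4, 11 and 3 counts in control guide libraries. Values of both genes overlapped between the groups.

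The death targets split into 4 genes that were tested and 5 that lay near 0. Ei24 (GRCm38 chr9:36779153-36797334, minus strand), an endoplasmic reticulum protein first found among etoposide-induced p53 targets, was at 29.1, 34.3 and 26.8 CPM in Nr2e3 guide libraries, against 24.6, 23.6 and 26.2 CPM in control guide libraries. Every Nr2e3 guide library lay above every control guide library, as for 4.63% of all genes tested, and the log2 fold change was 0.36 (SE 0.18, interval -0.07 to 0.78, edgeR adjusted p = 0.957). Gm26787, an antisense gene, overlaps 6.66% of the exons of Ei24. Bax, the pore-forming protein that opens mitochondria in apoptosis, was at 15.4, 21.2 and 16.4 CPM in Nr2e3 guide libraries, against 15.3, 17 and 19.7 CPM in control guide libraries. The groups overlapped, and the log2 difference of 0.11 had an interval of -0.38 to 0.61. Gm45808 shares 12.2% of the exons of Bax. Aen, a nuclease that p53 induces in apoptosis, averaged 9.81 ± 2.14 CPM in Nr2e3 guide libraries and 12.1 ± 0.561 CPM in control guide libraries (SD, n = 3 each), with a log2 fold change of -0.22 (SE 0.25). Tnfrsf10b, a receptor for the death ligand TRAIL, was at 1.54, 0.931 and 0.997 CPM in Nr2e3 guide libraries and at 0.705, 0.944 and 1.20 CPM in control guide libraries, with the groups mixed.

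The 5 death targets near 0 include the genes through which p53 starts apoptosis most directly. Bbc3, which encodes the Bcl2 antagonist Puma, had 4, 0 and 3 counts in Nr2e3 guide libraries and 0, 2 and 5 counts in control guide libraries. Pmaip1, which encodes the related protein Noxa, had 22 counts in Nr2e3 guide replicate 3 and 10 counts in control guide replicate 3, and was at 0 in all 4 libraries of replicates 1 and 2. Fas, the receptor for the death ligand Fasl, had 1, 0 and 23 counts in Nr2e3 guide libraries and 3, 3 and 1 counts in control guide libraries. For Pmaip1 and Fas most counts of the Nr2e3 guide group thus came from replicate 3. Phlda3, an inhibitor of the kinase Akt, had 0, 5 and 18 counts in Nr2e3 guide libraries and 5, 13 and 1 counts in control guide libraries. Eda2r, a receptor of the tumour necrosis factor family, had 8 counts in Nr2e3 guide replicate 1 and 0 in every other library. A count of 0 allows up to 3 counts, which is 0.0875 to 0.121 CPM depending on the library, so a level below that can go uncounted at this depth. Such limits cover counting error only.

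Beyond these genes, 149 others of the p53 and break repair pathways were listed in 8 groups, of which 133 were tested and 0 were called by edgeR. At an unadjusted p under 0.05, 6 of the 133 lay on the higher side (4.51%, against 3.08% of all genes) and 2 on the lower side (1.5%, against 2.61%). DESeq2 called 2 of the 133 higher and limma-voom 1, the cyclin gene Ccng2 in both and Abraxas1 in DESeq2. These are 1.5% of the 133 against 1.17% of all genes in DESeq2, and 0.752% against 0.934% in limma-voom. Every Nr2e3 guide library lay above every control guide library for 8 of the 133 (6.02%), against 4.63% of all genes tested. All lay below for 11 of the 133 (8.27%), against 7.55% of all genes tested. The median log2 fold change of the 133 genes was 0.03. Per list it lay between -0.06 for non-homologous and alternative end joining and 0.14 for the list of arrest and antiproliferation genes. That list holds Ccng2 and Tob1 on the higher side and Btg2 on the lower side.

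Ccng2, an atypical cyclin linked to arrest in resting cells, was at 31.8, 26.2 and 31.2 CPM in Nr2e3 guide libraries, against 15.7, 18.3 and 15 CPM in control guide libraries. The groups were well apart, and the log2 fold change was 0.93 (SE 0.18) with an adjusted p of 0.141 in edgeR, 0.000405 in DESeq2 and 0.0431 in limma-voom. Ccng2 is also known as a target of FoxO factors. Abraxas1, a scaffold of the Brca1-A complex that binds ubiquitin chains at breaks, was at 30.9, 43.4 and 35 CPM in Nr2e3 guide libraries, against 21.7, 22.1 and 16.5 CPM in control guide libraries. Every Nr2e3 guide library was above every control guide library, with a log2 fold change of 0.93 (SE 0.23) and an adjusted p of 0.320 in edgeR and 0.0355 in DESeq2. Its difference thus ran opposite in sign to that of Brca1, and neither was called by edgeR.

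Xrcc4, the partner of Lig4 in sealing breaks, was at 35.4, 43.3 and 30.2 CPM in Nr2e3 guide libraries, against 23.3, 22.6 and 23.0 CPM in control guide libraries. The groups did not overlap (log2 fold change 0.74, SE 0.20, edgeR adjusted p = 0.425), while Lig4 itself overlapped. Tob1, an antiproliferative gene related to the p53 target Btg2, was at 18.6, 15.1 and 6.53 CPM in Nr2e3 guide libraries, against 5.18, 5.52 and 6.15 CPM in control guide libraries. Nr2e3 guide replicates 1 and 2 carried most of that difference, for which the edgeR adjusted p was 0.519. Btg2 was at 212, 226 and 203 CPM in Nr2e3 guide libraries, against 271, 298 and 344 CPM in control guide libraries, on the lower side with no overlap (adjusted p = 0.539). Ak1, an adenylate kinase, was at 19.4, 27.8 and 36.1 CPM in Nr2e3 guide libraries, against 52.8, 51.4 and 45.7 CPM in control guide libraries, with a log2 fold change of -0.79 and an edgeR adjusted p of 0.511. The antiproliferative relatives Tob1 and Btg2 thus stood on opposite sides.

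In the lists with no gene at an unadjusted p under 0.05, the genes named by smallest p were Hipk2 and Rps27l among regulators of p53, Ctsd and Triap1 among death targets, Xrcc2 in homologous recombination, and Rad17 and Hus1 in the replication checkpoint. The log2 fold changes of these 7 genes were all within 0.5 of 0. The lists of redox targets, break signalling and end joining also named Sat1 at 0.31, Shld2 at 0.59 and Parp3 at -0.95 on the log2 scale, with edgeR adjusted p of 0.874, 0.925 and 0.891. Sat1 is a polyamine enzyme, Shld2 a subunit of the shieldin complex that protects broken ends, and Parp3 a polymerase of ADP-ribose at breaks.

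**Figure D5:**
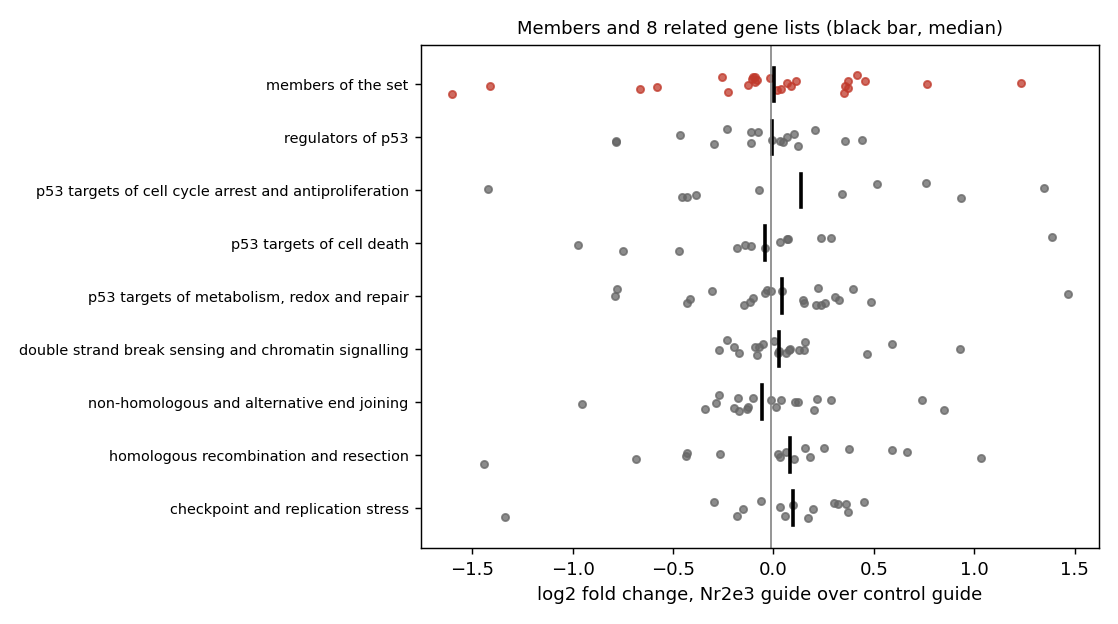
Log2 fold change, Nr2e3 guide over control guide (x axis), of the 26 tested genes of the set (red) and of the tested genes of 8 related lists (grey); black bars are list medians and the thin vertical line is the median of all genes tested (-0.01). Every median lies between -0.06 and 0.14.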

How the data were processed

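Per the labels' protocols, total RNA of about 100000 sorted cells per library was amplified with a SMARTer Ultra Low kit. The authors deposited raw counts of reads by gene symbol. The submitters' processing notes name STAR 2.7.3a, HTSeq 0.12.4, cutadapt and DESeq2 1.42.0 with build GRCm38 (mm10). Neither the annotation nor the strand setting is given in the sources used here. Reads of a gene and of an antisense partner may thus be mixed, or set aside as ambiguous (1.84 to 2.01% of counts). The 5 entries that name no gene held 21.6 to 23.7% of counts and were left out.

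Groups were compared over all genes with edgeR 4.0.16 in R 4.3.3 (TMM factors, filterByExpr with min.count 10 and 15 counts in total, glmQLFit and glmQLFTest, group as the only term, Benjamini-Hochberg adjusted p under 0.05). SE is the size of the log2 fold change over the square root of the F statistic. Each library is a separate animal. Alternatives were DESeq2 1.42.0, limma-voom 3.58.1 with quality weights, DESeq2 size factors, no filter, a 5 CPM minimum on the mean, sex as a term, a block by replicate number, only males, both replicate 3 libraries left out, each library left out, and an adjusted p under 0.1. The fit was tested on simulated data. No pair of libraries within a group was close enough in counts to be a single library. Coordinates and promoters come from RefSeq GRCm38.p6, exon lengths (all annotated exons merged) and overlaps from GENCODE M21. RefSeq also names pseudogenes of Trp53 and Mdm4, with which reads could be shared.

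The genes and lists were chosen with earlier results of these data known. All 33 genes are named, with values per library for those with an unadjusted p under 0.05, no overlap between groups, a spread of at least 2-fold within a group, or the 6 highest levels per length. In each other list the called genes or, with none, the 2 of smallest p are named. Any further gene was chosen with its values in view. The values of 1 gene that this rule takes are not reported here.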

Additional observations from a re-analysis of the deposited data

How the results depend on the processing

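No gene of the set was called under any of the 15 alternatives or at an adjusted p under 0.1, and the number at an unadjusted p under 0.05 lay between 0 and 5. In males only it was 4 (Cdkn1a, Polk, Psrc1 and Trp53inp1), in a fit whose spread comes from the control guide libraries alone, and with sex as a term Polk and Trp53inp1 passed it and Brca1 did not. The median log2 fold change of the set lay between -0.09 (mean of at least 5 CPM) and 0.16 (without control guide replicate 3). Direction was kept in every alternative by 16 of the 26 genes, and 33 of 383 values by gene and alternative had the opposite sign, none of them called.

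Counts over other genes moved more. Of the other pathway genes DESeq2 called 2 higher and limma-voom 1. Of all genes, 54 were called higher and 5 lower by edgeR, against 201 and 70 by DESeq2, 160 and 19 by limma-voom, 130 and 25 with no count filter, 83 and 8 at an adjusted p under 0.1, 6 and 0 with sex as a term, and 0 and 0 in males only. With each library left out in turn, 14 to 80 were called higher and 0 to 9 lower, the highest counts coming without control guide replicate 3. Replicate numbers name different animals, and deviations of same-numbered libraries correlated at 0.167, -0.124 and 0.143. Values this small, from so few libraries, cannot decide whether libraries of the same number were handled together, which was not tested. With the replicate number as a block, 31 were called higher and 1 lower, and the set again had none. The cause of these shifts was not tested. Sex and guide are partly tied, since a single Nr2e3 guide library is male. Depth limits the 7 genes under the count filter most, since 3 counts correspond to 0.0875 to 0.121 CPM.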
